A study of Homo sapiens with 36 samples.

Results

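Of 11048 genes measured on 36 expression arrays, 3213 separated 8 knockdown lines from the other 4 groups of the study without overlap of the group means. The 8 lines carried stable short hairpin RNAs, delivered by lentivirus, against the DNA damage kinases ATM (lines labelled shATM-1 and shATM-3), ATR (shATR-3 and shATR-4), CHK1 (shCHK1-3 and shCHK1-4) and CHK2 (shCHK2-1 and shCHK2-2). The other 4 groups were untransduced wild type cells, cells with a scrambled hairpin (shControl), and the lines sh53BP1-1 and sh53BP1-2 with hairpins against 53BP1, the product of TP53BP1. Every group had 3 arrays labelled as biological replicates, so that 24 arrays stood against 12. All cells were labelled MCF-10A, a line of human breast epithelium that is not transformed, seeded at 200000 cells on 10 cm plates and harvested after 48 h. Whether a line was 1 clone or a selected pool was not given in the sources used here. With lines that differ in more than the hairpin, a change caused by a hairpin and a difference that a line already had cannot be told apart.

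A gene was a member when its 8 line means all lay above, or all lay below, the 4 other group means. The higher set had 1501 members (13.6% of the genes measured) and the lower set 1712 (15.5%), together 29.1%. The group means themselves chose the members, so their levels in the 8 lines and in the other 4 groups are a description, and no test was made of that difference. Levels are log2 signals after background correction and normalization, and a probe was called above background when its detection p-value was under 0.01. The gap of a gene is the lowest mean of the higher side minus the highest mean of the lower side.

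MCF-10A cells are known to lack the CDKN2A locus on the short arm of chromosome 9. This locus encodes 2 inhibitors of the cyclin D kinases CDK4 and CDK6, p16 from CDKN2A and p15 from CDKN2B, and next to them lies MTAP, the enzyme that recycles methylthioadenosine into the methionine salvage pathway. Cyclin D proteins bind CDK4 and CDK6 and drive cells through G1, and p16 blocks these complexes. MSLN encodes mesothelin, a surface protein of mesothelial cells, and RARRES1 a membrane protein that retinoids induce.

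The labelled cell type was checked first. The epithelial adhesion genes EPCAM and CDH1 were above background on all 36 arrays and did not separate the sides, with differences of -0.27 and -0.75 (log2, 8 lines minus the other 4 groups). Of 11 measured basal mammary markers, 10 were above background on all 24 arrays and 10 on all 12. Of 9 blood cell markers with a probe, 7 missed the detection filter: PTPRC and CD3E were above background on 0 of 36 arrays and SPI1 on 1. The other two, CD14 and CD68, were above background on all 36. CD14 was a lower member (-2.12), although its further probe met the rule in neither direction (gap -0.27), and CD68 was no member (0.13). Of 8 endothelial markers 6 were above background on 0 arrays, VWF and KDR among them. PECAM1 was above background on 0 of 24 and all 12 arrays and was a lower member, at least 3-fold lower, and CDH5 was above background on 0 of 24 and 4 of 12. The part of these cell types in the results was not tested. At MTAP, CDKN2A and CDKN2B, in or next to the locus that MCF-10A is known to lack, the labels and the data differed. These genes were below background on the 12 arrays outside the 8 lines and above it on the 24 arrays labelled with kinase hairpins. Only expression was read, and the cause was not tested. The 8 lines are therefore called below by their labels only. Of the hairpin targets, ATM, CHEK1, CHEK2 and TP53BP1 were not members, and no ATR probe passed the filter (above background on at most 2 of 36 arrays). The mean log2 signal of ATM was 8.11 and 7.97 in the shATM lines and 8.61 to 9.07 in the other 10 groups, and that of CHEK1 was 8.49 and 8.47 in the shCHK1 lines and 8.74 (shControl) to 10.09 elsewhere. CHEK2 stood at 5.96 and 6.86 in the shCHK2 lines and at 6.96 to 8.10 elsewhere, and TP53BP1 at 5.47 and 5.78 in the sh53BP1 lines and at 7.29 to 8.12 elsewhere. Each of these 4 targets had its lowest means in the lines named for it, an order that was not tested. For CHEK2 the margin was small, 6.86 in shCHK2-2 against 6.96 in shControl, beside an SD within groups of 0.25.

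Every array of one side lay beyond every array of the other in 652 higher members (5.90% of all genes) and 845 lower members (7.65%). In 1012 higher and 1102 lower members the probe was above background on all 36 arrays. A further 88 genes were above background in all 24 arrays and in 0 of the 12 (0.797% of all genes), and 98 showed the reverse (0.887%). For the remaining 401 higher and 512 lower members detection was mixed. The median gap was 0.259 in the higher and 0.315 in the lower set (log2), and 211 and 264 members had a gap of at least 1. The median SD within groups was 0.16 and 0.17. Without the sh53BP1 lines, so with wild type and shControl alone on the other side, 2625 genes were higher and 2682 lower, and all 3213 members were among them by construction of the rule.

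The genes nearest to the limit of the rule had a gap that rounds to 0. Just inside lay DCTN1, PDE8A and RNU5A-1 in the higher set, at mean differences of 0.54, 0.67 and 0.46, and ANKRD23, DMTF1 and LSM8 in the lower set, at -0.34, -0.25 and -0.36. Just outside lay EIF3F, GTF2F2 and PAPSS2 (0.31, 0.27 and 2.36) and ELMOD2, EPHB6 and FAM83H (-0.76, -0.69 and -0.24). The limit thus falls among small differences, apart from PAPSS2, whose 4 other group means spanned 2.57.

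MTAP had log2 signals of 8.98, 10.17 and 10.43 (lowest, median and highest of the 24 arrays) in the 8 lines, and of 4.50, 4.70 and 5.02 over the 12 other arrays. All 24 arrays were above background and all 12 were below it, at least 25.6-fold apart. This bound sets the mean of the 8 lines against the lowest signal that counted as detected on each of the other arrays, or the gene's own signal where that was higher. The 8 lines had a mean of 10.06 ± 0.36 (SD of 8 line means). The low end was 1 line, shATM-3, with a mean of 9.22 against 10.27 in shATM-1 (difference -1.05 ± 0.12, log2 and SE, n = 3 arrays each, limma adjusted p 4.96e-08), while the other 7 lines lay between 9.94 and 10.31.

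CDKN2A ran from 8.72 over 8.98 to 9.24 in the 24 arrays and from 4.41 over 4.67 to 4.93 in the 12 (lowest, median and highest). It was at least 12.2-fold higher in the 8 lines, with no overlap, and the line means from 8.82 in shATM-1 to 9.14 in shCHK2-2 did not pass the F test for a difference among lines (limma adjusted p 0.122). A second CDKN2A probe met the rule in the same direction with a gap of 3.69. CDKN2B had 6.26, 7.04 and 8.17 over the 24 arrays and 4.39, 4.65 and 4.92 over the 12, and stood at least 3.58-fold higher in the 8 lines. It differed among the lines (limma adjusted p 5.82e-12), from 6.39 in shCHK2-2 to 8.07 in shCHK2-1.

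The promoters of these 3 neighbouring genes are shown because the genes were present or absent together, and that of RARRES1 because it ran the other way. Each line holds the 250 bases upstream of the RefSeq start (GRCh38.p14), 5′ to 3′ on the gene's strand, with CG pairs in capitals. For CDKN2A this is the start of the ARF transcript, which has a first exon of its own, and not that of the p16 transcript.
MTAP: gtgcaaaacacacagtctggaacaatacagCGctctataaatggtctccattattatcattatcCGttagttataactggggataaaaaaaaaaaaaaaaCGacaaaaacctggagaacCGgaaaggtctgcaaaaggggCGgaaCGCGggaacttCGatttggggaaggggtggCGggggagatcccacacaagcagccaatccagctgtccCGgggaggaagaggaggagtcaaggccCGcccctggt
CDKN2A: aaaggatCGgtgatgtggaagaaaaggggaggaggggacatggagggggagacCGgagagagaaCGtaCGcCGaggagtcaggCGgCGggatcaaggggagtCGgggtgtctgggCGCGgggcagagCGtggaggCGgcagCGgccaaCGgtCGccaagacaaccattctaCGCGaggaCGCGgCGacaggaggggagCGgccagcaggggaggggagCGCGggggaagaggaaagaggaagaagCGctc
CDKN2B: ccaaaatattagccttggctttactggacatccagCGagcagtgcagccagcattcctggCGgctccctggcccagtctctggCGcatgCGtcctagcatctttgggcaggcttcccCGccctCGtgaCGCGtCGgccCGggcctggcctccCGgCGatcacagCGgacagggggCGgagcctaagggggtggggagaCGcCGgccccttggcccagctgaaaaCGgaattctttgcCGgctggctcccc
RARRES1: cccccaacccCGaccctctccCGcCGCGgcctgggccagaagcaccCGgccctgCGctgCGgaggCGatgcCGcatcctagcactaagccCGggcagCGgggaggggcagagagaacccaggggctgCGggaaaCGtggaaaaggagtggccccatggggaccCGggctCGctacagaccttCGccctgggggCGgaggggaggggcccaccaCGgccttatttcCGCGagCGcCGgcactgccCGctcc
MTAP lies on the plus strand (chr9:21802386-21802635) and holds 11 CG pairs. CDKN2A (chr9:21995325-21995574) holds 24, CDKN2B (chr9:22009306-22009555) 18 and RARRES1 (chr3:158732458-158732707) 23, all on the minus strand.

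Around CDKN2A, 4 genes in a row of measured protein-coding neighbours were present or absent: MTAP, CDKN2A, CDKN2B and ELAVL2, a neuronal RNA-binding protein gene at least 2.66-fold higher in the 8 lines. The antisense transcript CDKN2B-AS1, which lies among them, was above background on only 2 of 24 and 3 of 12 arrays. Beyond ELAVL2, the measured genes TUSC1, CAAP1, PLAA and IFT74 were above background on all 36 arrays and met the rule in neither direction, with differences between -0.18 and 0.33. On the MTAP side, IFNE, KLHL9 and HACD4 were not members either (0.47, 0.30 and 0.33), and FOCAD was higher by 1.17 with a gap of 0.61. Farther out on the ELAVL2 side, MOB3B was above background on 24 of 24 and 1 of 12 arrays and higher by 2.22 (gap 1.37), and ACO1 was higher by 1.06 (gap 0.21). LINGO2, between them, was above background on 0 of 24 and 6 of 12 arrays and lower (-0.98). Beyond FOCAD, DENND4C and PLIN2 were lower (-0.70 and -0.44), PLIN2 being above background on 3 of 24 and 6 of 12 arrays. CDKN2B-AS1, IFNE, the genes from TUSC1 to IFT74, MOB3B, LINGO2, ACO1, DENND4C and PLIN2 were chosen after their values were seen.

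**Figure D1:**
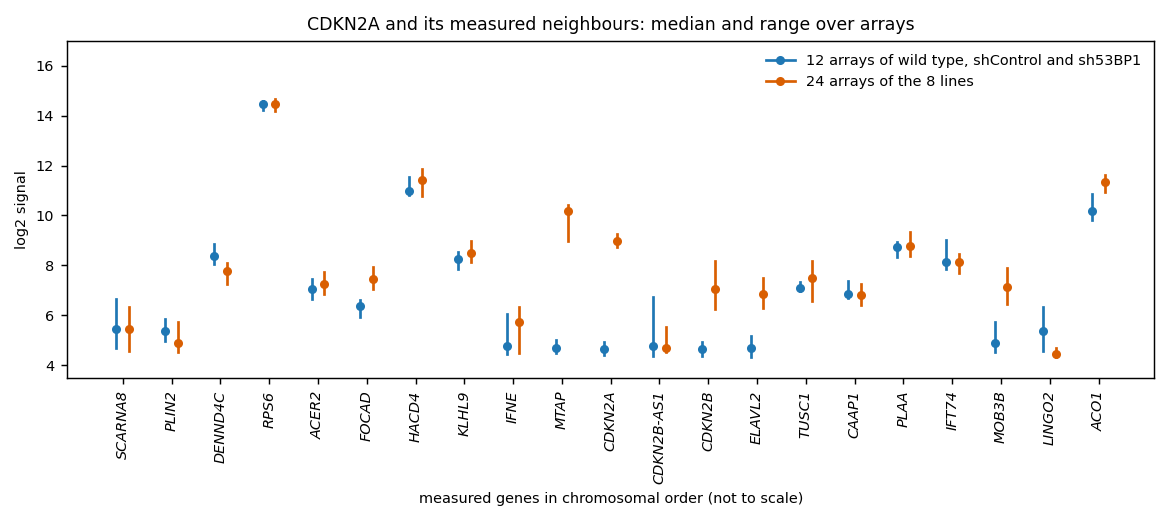
Log2 signal (vertical axis) of CDKN2A and its 10 nearest measured genes on each side, in chromosomal order and not to scale; points are medians and bars the range over the 12 arrays outside the 8 lines (blue) and the 24 arrays of the 8 lines (orange). MTAP, CDKN2A, CDKN2B and ELAVL2 stand apart, with the 12 arrays near 4.7 in each, while KLHL9, HACD4, TUSC1, PLAA and IFT74 overlap. The array ranges of FOCAD, MOB3B and ACO1 do not overlap either, all higher in the 8 lines.

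Methionine salvage was read beside the shares of all genes that were higher (13.6%) or lower (15.5%). Of 18 measured genes of this pathway and of polyamine metabolism, MTAP and the polyamine oxidase gene PAOX were higher, and 0 were lower. The list median was 0.04, against 0.014 over all 11048 genes. AHCY and SAT1, which clear adenosylhomocysteine and acetylate spermidine, were not members (0.52 and -0.14).

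CCND2, which encodes cyclin D2, had the widest gap of all members, 8.43. Its log2 signal was 12.82, 13.20 and 13.54 over the 24 arrays and 4.21, 4.36 and 4.61 over the 12 (lowest, median and highest). Cyclin D2 mRNA was above background on every array of one side and below it on every array of the other, at least 224-fold apart, and a second probe gave a gap of 6.45. The line means spanned 0.54 and differed among the 8 lines (limma adjusted p 0.000328), from 12.92 in shCHK2-2 to 13.46 in shCHK1-4.

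Of 20 measured G1 cyclins, their kinases and their inhibitors, 7 were higher and 3 lower. The shares of all genes were 13.6% higher and 15.5% lower, for this list and those that follow. Beside CCND2, CDKN2A and CDKN2B, the higher genes were CCND1 (cyclin D1, 0.97), CDK2, CDK6 and RBL1. Lower were CCNE1 (cyclin E1, -1.32), E2F2 (-2.36) and RBL2, a relative of the retinoblastoma protein (-1.07). CCND3 and the p21 gene CDKN1A were not members, at -0.01 and -0.15. Of 30 measured G2/M genes UBE2C was higher (0.86) and CENPF lower (-1.13), and the list median was 0.23. The further UBE2C probe met the rule in neither direction (gap -0.03). Most of all genes, 7835 of 11048, met it in neither direction too. Among 23 measured p53 targets 5 were higher, led by MDM2, the ubiquitin ligase of p53, which was above background on all 24 and on 2 of the 12 arrays (2.53). GADD45A, SFN and TIGAR followed at 1.92, 1.27 and 1.01, while BBC3 and RRM2B were lower (-0.46 and -1.13).

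**Figure D2:**
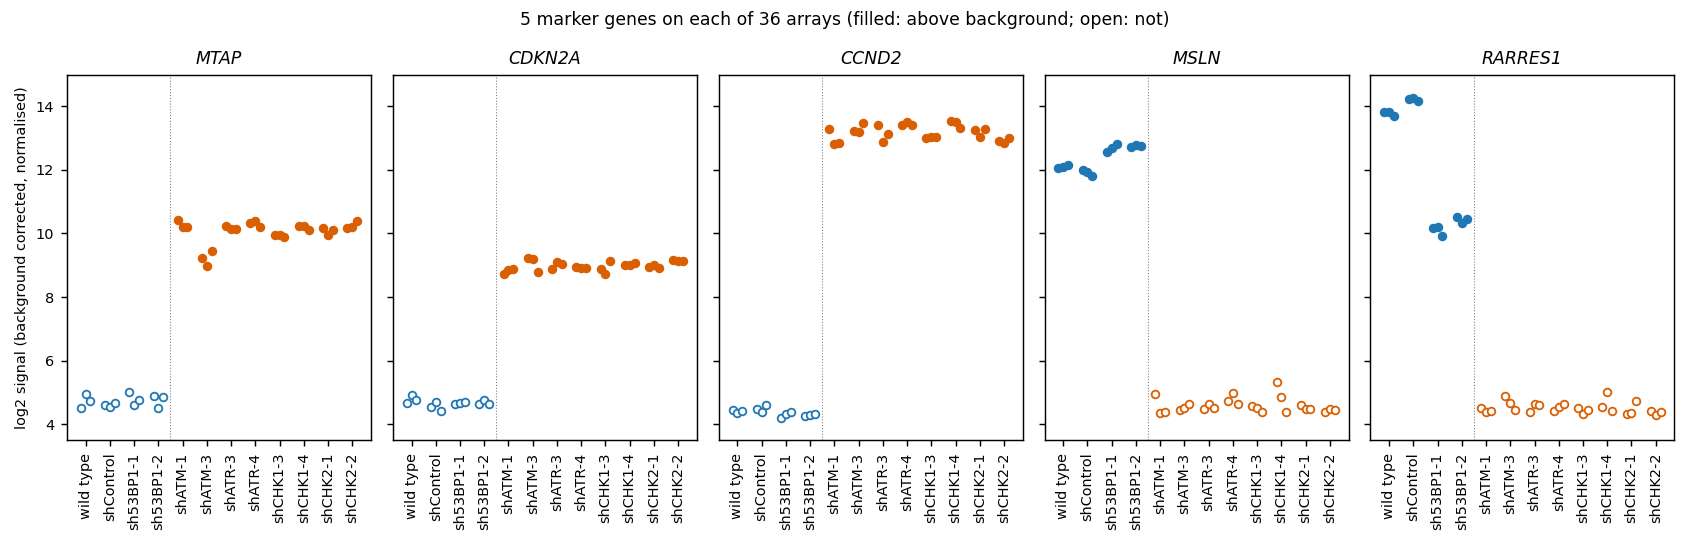
Log2 signal (vertical axis) of MTAP, CDKN2A, CCND2, MSLN and RARRES1 on each of the 36 arrays, by group (horizontal axis, 3 points each); filled points were above background and open points were not. Each gene is filled on all arrays of one side and open on all arrays of the other, and RARRES1 differs between sh53BP1 and the 2 control groups.

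MSLN showed the reverse of CCND2. Its log2 signal was 4.36, 4.50 and 5.32 over the 24 arrays and 11.81, 12.35 and 12.81 over the 12, all 24 below and all 12 above background. It was at least 130-fold lower in the 8 lines, with the widest gap of the lower set, 7.07. Among the 4 groups it differed too (limma adjusted p 1.35e-05), being 0.80 ± 0.13 higher in sh53BP1 than in shControl (log2 and SE, 6 against 3 arrays, limma adjusted p 4.78e-06).

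RARRES1 was below background on all 24 arrays (4.29, 4.45 and 5.01) and spanned 9.91, 12.10 and 14.26 over the 12, at least 110-fold higher there. Its 3 probes all met the rule, the other two with gaps of 4.76 and 2.07. The spread over the 12 arrays followed the groups: wild type had a mean of 13.78, shControl 14.21, sh53BP1-1 10.09 and sh53BP1-2 10.44. RARRES1 was 15.5-fold lower in the sh53BP1 lines than in shControl (-3.95 ± 0.11, log2 and SE, limma adjusted p 4.01e-23). It was thus a member that also varied on its own side.

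Other present genes of the 8 lines included DKK3, a secreted glycoprotein of the Dickkopf family. DKK3 was at least 92.2-fold higher, FEZ1, a kinesin adaptor, at least 61.3-fold, and GJA1, which encodes the gap junction protein connexin 43, at least 45.0-fold. FBN2 (fibrillin-2 of elastic microfibrils) was at least 30.7-fold higher, PLCH2 at least 28.3-fold, DPYSL3 at least 26.1-fold and ARHGEF35 at least 22.5-fold. BCAT1, a branched-chain amino acid aminotransferase, CCN6 and SLC2A6 were at least 22.2-fold, 21-fold and 20.3-fold higher. The SDs of the 8 line means ran from 0.06 (ARHGEF35) to 0.59 (FEZ1), and FEZ1 was 2.51-fold higher in shATM-3 than in shATM-1 (limma adjusted p 3.59e-14).

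Genes present only in the other 4 groups were led, after MSLN, by CYBA, a membrane subunit of NADPH oxidases, at least 110-fold higher there. PLAAT3, a phospholipase, was at least 42.1-fold and COX7A1, a subunit of cytochrome c oxidase, at least 37.2-fold higher. ANPEP (aminopeptidase N) followed at 53.0-fold or more, CPVL, BAIAP2L2 and EPDR1 at 35.2-fold, 34.8-fold and 34.7-fold or more. KRTCAP3, COBL and the choline dehydrogenase gene CHDH closed this set at 19-fold, 16.2-fold and 15.8-fold or more. BAIAP2L2 and CPVL also differed among the 4 groups, whose means spanned 1.71 and 1.87 (limma F test, adjusted p 4.08e-16 and 1.21e-14).

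Of higher members above background everywhere, FST had the widest gap, 4.42. FST encodes follistatin, which binds and blocks activins. Its log2 signal was 12.15, 13.40 and 14.22 over the 24 arrays and 5.75, 7.09 and 7.92 over the 12. Both sides varied to a like extent (ranges of the group means 1.96 and 1.91), and their means differed 80.8-fold. IFITM3, an interferon-induced membrane protein that limits virus entry, was 16.1-fold higher (gap 3.11), FKBP11, a proline isomerase of the endoplasmic reticulum, 10.2-fold, SLC35E3 8.73-fold and the centriole gene RTTN 8.63-fold. The tubulin gene TUBB6, the receptor tyrosine kinase gene AXL and KCTD12 were 7.61-fold, 6.08-fold and 6.67-fold higher.

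Of lower members above background everywhere, ATP5MK, a small subunit of ATP synthase, had the widest gap, 3.45, with 5.69, 6.43 and 6.80 over the 24 arrays and 10.02, 10.27 and 10.36 over the 12. S100A4, a calcium-binding protein, was 38.5-fold lower and ran from 6.16 to 8.66 against 11.35 to 13.71. The 2 ranges did not touch. The acute-phase protease inhibitor gene SERPINA3 was 26.5-fold lower, ATP6V0E2 of the proton pump V-ATPase 18.5-fold, CXXC5 12.2-fold, the mitochondrial genes CHCHD10 and NME4 10.8-fold and 10.5-fold, and ACSL1, which activates fatty acids, 10.6-fold. LAPTM4B and the thymidine phosphorylase gene TYMP were 7.94-fold and 9.71-fold lower.

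**Figure D3:**
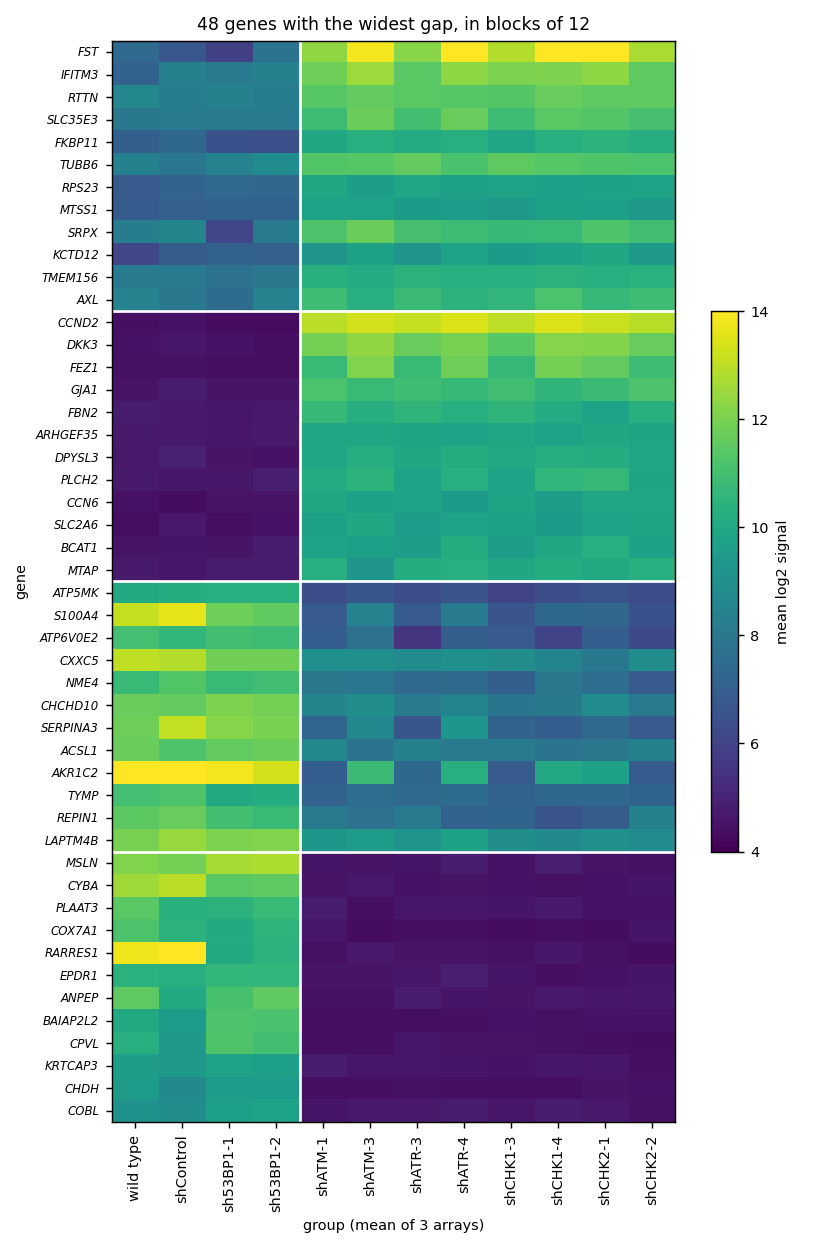
Mean log2 signal (colour) of 48 genes in the 12 groups, in 4 blocks of 12 genes divided by white lines: higher and above background on all arrays, higher and present only in the 8 lines, lower and above background on all arrays, and lower and present only in the other 4 groups. FST and AKR1C2 vary among the 8 lines, and RARRES1 varies among the other 4 groups.

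The gene lists were read by their counts, beside the share of all genes that were higher (13.6%) or lower (15.5%). Of 16 measured luminal mammary markers, 6 were lower and 1 higher, with a list median of -0.79. MUC1, an apical mucin of luminal cells, ran from 4.91 to 7.07 over the 24 arrays and from 12.08 to 13.03 over the 12, with a gap of 5.47. ELF3 and ERBB3 differed by -2.29 and -2.08, and KRT19, a luminal keratin, was below background on all 24 arrays and at 5.90 to 7.71 on the 12. XBP1 was the member on the other side (0.48), and CD24 did not separate the sides (-0.24). The summed signal of this list was 25674 to 38299 on the 24 and 34667 to 56344 on the 12 arrays, so that the list as a whole overlapped.

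Of 11 basal markers 3 were higher, with the integrin ITGA6 and the plakin DST at 0.75 and 1.68 and NGFR above background on 13 of 24 and 0 of 12 arrays. Of 4 further DST probes 1 was also higher (gap 0.13), 1 was lower (gap 0.00) and 2 met the rule in neither direction. KRT15, a keratin of basal progenitors, was lower (-4.02). Of 13 measured mesenchymal markers 3 were higher and 3 lower. SPARC, a matrix protein, and THY1 were above background on all 24 arrays and on 0 of the 12, at least 9.03-fold and 5.73-fold higher, and the transcription factor SNAI2 was 7.03-fold higher. TWIST1, FAP and S100A4 were lower, at -1.62, -1.55 and -5.27. VIM (vimentin) was 3.07 higher on average but was no member: shControl had a mean of 11.94 and shATR-4 11.77.

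Keratinocyte differentiation genes were lower in 5 of 18 measured cases and higher in 0 (list median -0.70). KLK5, KLK6 and KLK7, secreted serine proteases of the kallikrein cluster, differed by -5.37, -4.85 and -5.16, and the crosslinking enzyme gene TGM1 by -2.61. In this order they were above background on 22, 9, 5 and 4 of the 24 arrays, so the background limits these differences. The keratin KRT10 was not a member (-0.11). Of 3 measured mesothelial markers MSLN and CALB2 were lower, CALB2 (calretinin) by -6.02, while BNC1 was not (0.58). CALB2 was above background on 7 of 24 and all 12 arrays. The only other CALB2 probe met the rule in neither direction (gap -0.21). The defining mesothelial gene WT1 was above background on 0 of 36 arrays, and the summed signal of the list was 386 to 550 over the 24 and 7095 to 10767 over the 12 arrays. This sum holds only the 3 measured genes, of which MSLN and CALB2 were chosen by the rule, so it restates their levels. In bulk samples fewer cells of a type and less RNA per cell cannot be told apart, and the part of other cell types in the result was not tested.

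**Figure D4:**
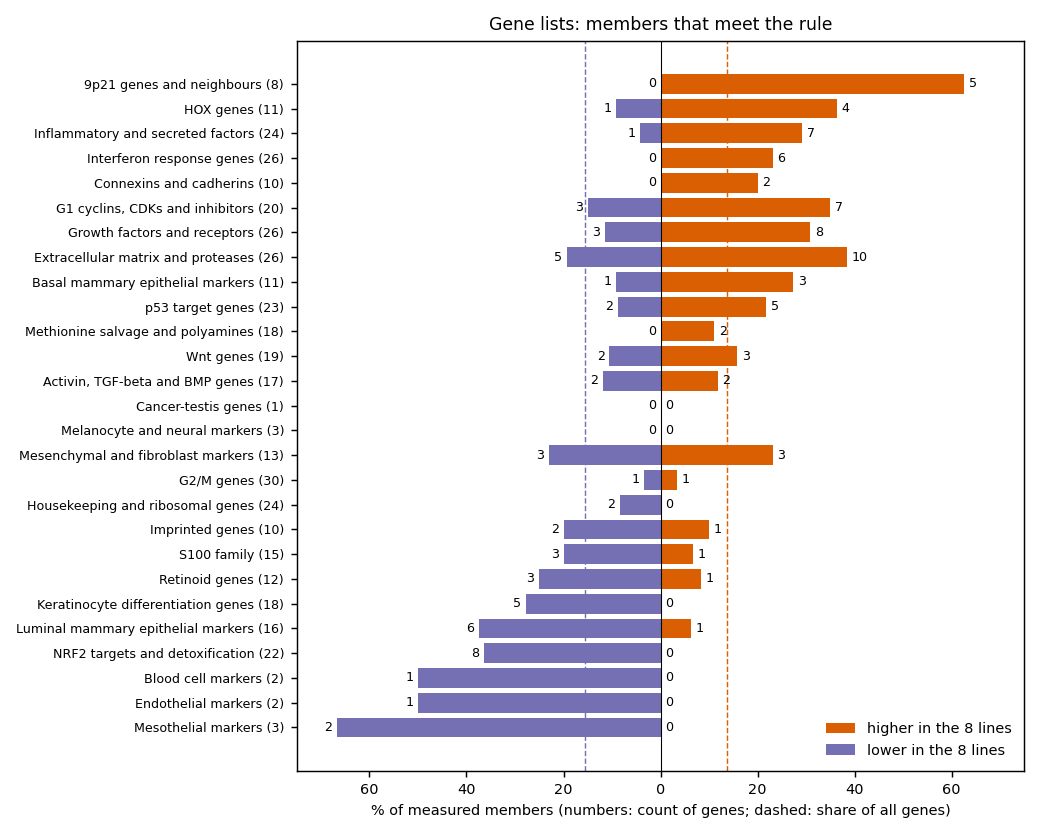
Share of the measured members of 27 gene lists (number measured in brackets) that were higher (orange, right) or lower (purple, left) in the 8 lines; numbers at the bars are gene counts and dashed lines mark the shares over all genes, 13.6% and 15.5%. The 9p21 list reaches farthest right (5 of 8 higher, 0 lower) and the mesothelial list farthest left (2 of 3 lower, 0 higher). NRF2 targets and luminal markers also reach left, with 8 of 22 and 6 of 16 lower and 0 and 1 higher. HOX and G1 lists reach right, with 4 of 11 and 7 of 20 higher and 1 and 3 lower. Inflammatory, matrix and growth factor lists had 7 of 24, 10 of 26 and 8 of 26 higher and 1, 5 and 3 lower.

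Detoxification genes, most of them targets of the oxidative stress factor NRF2, were lower in 8 of 22 measured cases and higher in 0, with a median of -0.75. AKR1C2, an aldo-keto reductase of steroids, was 6.60, 8.66 and 10.88 over the 24 arrays and 13.24, 14.06 and 14.44 over the 12, and thus 40.2-fold lower without overlap. AKR1C4 was 22.2-fold lower, but AKR1C genes are near-identical copies and 2 of 4 further AKR1C2 probes did not meet the rule, so the split between copies is uncertain. The efflux pump gene ABCC3 was 13.4-fold lower, ABCC2 at least 7.38-fold lower and below background in the 8 lines. NQO1 and TALDO1, classical NRF2 targets, were not members (-1.22 and -0.36).

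Inflammatory and secreted factors were higher in 7 of 24 measured cases and lower in 1, SERPINA3, with a median of 1.26. IL1B, the precursor of interleukin-1 beta, was 12.92, 13.73 and 14.39 over the 24 arrays and 4.37, 6.01 and 9.63 over the 12, of which 6 were above background. IL1A was 29.4-fold higher, with all arrays above background. The granulocyte growth factor gene CSF3 was above background on all 24 and 1 of the 12 arrays (5.06), and IL24 on 24 and 6 (4.91). IL18 and the NF-kappaB inhibitor gene NFKBIA were not members (0.01 and 0.65). Interferon response genes were higher in 6 of 26 cases and lower in 0, with IFITM3, ISG20 (2.00), OAS3 (1.61) and IFITM2 (1.44) among them, whereas ISG15 overlapped (1.85), with 8 line means that spanned 3.64.

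Matrix and protease genes were higher in 10 and lower in 5 of 26 measured cases (median 0.61). MMP1, interstitial collagenase, passed background on the 24 arrays and on 1 of the 12, at 9.57 to 13.53 against 4.42 to 5.63. The basement membrane collagen gene COL4A1 was 2.87-fold higher and the membrane protease gene MMP14 was above background on 23 of 24 and 0 of 12. MMP7 (matrilysin) was at least 3.22-fold lower, COL8A1 5.03-fold and FBLN1 3.10-fold, the last with 2 further probes that did not meet the rule. TIMP1 and THBS1 were not members (0.25 and 1.21).

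Growth factors and receptors were higher in 8 and lower in 3 of 26 cases (median 0.32). The lysophosphatidic acid receptor gene LPAR1 was above background on 24 and 3 arrays of the 2 sides (4.85), LPAR3 on 24 and 2 (2.73), and the ErbB ligand gene NRG1 on 24 and 8 (3.32), though 1 of 2 further NRG1 probes missed the rule. IGFBP7 was at least 16.1-fold higher. Lower were IGFBP3, which binds insulin-like growth factors (-4.92), the ErbB ligand gene BTC (-1.59) and ERBB3. IGFBP3 was above background on 7 of 24 and all 12 arrays, and BTC on 2 of 24 and 11 of 12. MET and HBEGF were not members (0.16 and 1.53).

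Of 19 measured Wnt genes 3 were higher and 2 lower, with WNT7A at least 10.0-fold higher and the receptor gene ROR1 lower by -1.67. ROR1 was above background on 11 of 24 and all 12 arrays. Of 17 activin, TGF-beta and BMP genes FST and BMP2 (1.53) were higher, and INHBB, an activin subunit, was at least 2.25-fold lower beside ID2 (-1.95). ID2 was above background on 6 of 24 and all 12 arrays. Connexins and cadherins gave 2 higher members of 10, GJA1 and PCDH7 (3.07). PCDH7 was above background on 24 of 24 and 6 of 12 arrays. Retinoid genes gave 3 lower and 1 higher of 12, with the retinoic acid hydroxylase gene CYP26B1 at -1.53 and the retinal dehydrogenase gene ALDH1A3 at 1.5. CYP26B1 was above background on 18 of 24 and all 12 arrays. S100 genes gave 3 lower and 1 higher of 15, with S100P at -5.53 and S100A2 at 0.89.

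Of 11 measured HOX genes 4 were higher and 1 lower: HOXC4 was at least 4.21-fold higher, HOXB2 and HOXA2 5.14-fold and 2.16-fold higher, and HOXC13 was 2.80-fold lower. HOXB7 was above background on 20 of 24 and 0 of 12 arrays, with shCHK2-2 lowest at 4.87. Of 10 imprinted genes MEST was at least 9.74-fold lower, below background in all 24 arrays, GRB10 was lower by -0.79 and SNRPN 3.70-fold higher. Of 22 cancer-testis genes 14 were above background on 0 of 36 arrays, and the single one that passed the filter was not a member, while 22 of 24 measured housekeeping and ribosomal genes were not members. RPL13 (-0.94) and RPL10A (-0.22) were the exceptions, and a further probe of each did not meet the rule.

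Members were spread unevenly over the chromosomes, which were examined after the values were seen, with positions from RefSeq. On chromosome 20, 146 of 304 measured genes were higher (48.0%) and 13 lower (4.28%), and the median difference of all its measured genes was 0.55. On chromosome 16, 227 of 525 were lower (43.2%) and 17 higher (3.24%), with a median of -0.48. Chromosomes 8, 7 and 4 had 29.6%, 29.1% and 25.4% of their genes lower. Chromosomes 2, 6, 14, 15 and 17 had between 9.20% and 12.9% higher and between 11.3% and 13.3% lower.

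The shifts of chromosomes 20 and 16 had the same sign in every line, which the choice of these chromosomes by their members favours. The median over chromosome 20 ranged from 0.48 (shCHK2-2) to 0.67 (shATR-4) across the 8 lines, relative to the mean of the other 4 groups. Each of these 4 groups lay between -0.01 and 0.01, but they form the reference, so their values centre near 0 by construction. For chromosome 16 the lines ranged from -0.54 to -0.41 and the 4 groups from -0.02 to 0.01. Chromosome 4 was uneven, at -0.07, -0.12, -0.15 and -0.22 in shCHK2-2, shATM-1, shATR-3 and shCHK1-3, and at -0.31, -0.35, -0.39 and -0.41 in shATM-3, shCHK1-4, shATR-4 and shCHK2-1. For each kinase the hairpins fell on either side of this order. DNA copy number was not measured here.

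**Figure D5:**
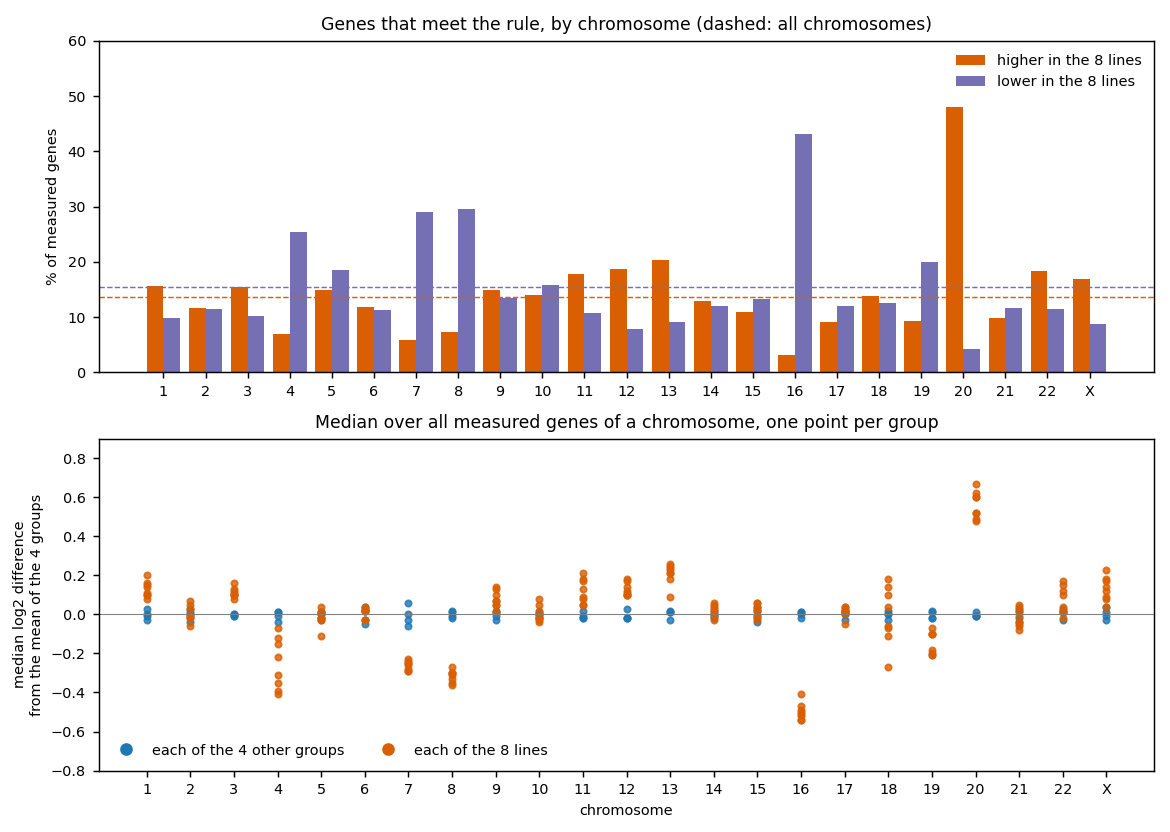
Upper panel: share of the measured genes of each chromosome (vertical axis, %) that were higher (orange) or lower (purple) in the 8 lines, with dashed lines for all chromosomes. Lower panel: median log2 difference of all measured genes of a chromosome from the mean of the 4 other groups, 1 point per group; chromosome 20 stands at 0.48 to 0.67 and chromosome 16 at -0.54 to -0.41 in the 8 lines.

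Some neighbouring members formed runs, but 909 higher and 915 lower members stood alone, with no neighbour of the same direction. Runs of 2 genes numbered 179 and 201, and longer runs were fewer. The run lengths to be expected from the shares of members (13.6% and 15.5%) were not computed. In windows of 21 measured neighbours, the 6 windows (not overlapping) richest in higher members all lay on chromosome 20, the fullest being SIRPA to DNAAF9 and KAT14 to ACSS1 with 15 members each. The window NDUFB10 to RNPS1 on chromosome 16 held 16 lower members, and OXR1 to DEPTOR 15. The longest unbroken runs had 7 genes, TMEM238 to ZNF524 and TRAF7 to RNPS1, both lower, with median differences of -1.55 and -0.82. MSLN closed a run of 6 lower genes on chromosome 16 that began with FBXL16, at least 13.8-fold lower, and held METRN, ANTKMT, HAGHL and CIAO3 (median -2.19).

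Among runs of higher genes, MSRB3 to DYRK2 on chromosome 12 included HMGA2, a chromatin protein of embryonic tissue, which was 14.1-fold higher. HMGA2 was above background on 24 of 24 and 9 of 12 arrays. CSRP2 to PPP1R12A on the same chromosome had a median of 0.85. GPRASP3 to BEX3 on the X chromosome (median 1.53) held 6 genes, 5 of them of the BEX and TCEAL family, in which TCEAL9 was 6.91-fold higher. On chromosome 20, POLR3F to RIN2 and RBL1 to CTNNBL1 had medians of 0.92 and 1.02. KLK5 to KLK9 was a run of 5 lower genes with a median of -4.85. Of these, KLK6, KLK7 and KLK8 were above background on 9, 5 and 0 of the 24 arrays.

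Promoter sequences from RefSeq were matched for 1235 higher and 1325 lower members and for 8889 of all measured genes. The median number of CG pairs in the 250 bases upstream was 21 in all 3 sets. It was 17 in 65 genes present only in the 8 lines and 13 in 71 genes present only in the other 4 groups, and fewer than 5 CG pairs were found in 13.8% and 28.2% of them, against 8.30% of all measured genes. Genes above background on all arrays had few such promoters in either direction (4.42% and 4.64%). In these bases and the 50 after the start, on either strand, TATAAA was found in 5.91% of higher and 6.94% of lower members (6% of all), GGGCGG in 70.3% and 67.6% (69.4%), CACGTG in 9.47% and 11.2% (10.4%), TGANTCA in 5.02% and 4.60% (4.85%) and TGANNNNGC in 42.6% and 41.9% (43.0%). The core of the interferon-stimulated response element was found in 2.59% and 2.87% (2.88%). The motifs were searched as letters, and overlaps between them were not removed. Over all higher and all lower members the shares stood close to those of all genes. Genes present only in the 8 lines or only in the other 4 groups held TATAAA in 15.4% and 11.3% and TGANTCA in 6.15% and 9.86%, and GGGCGG in 60% and 53.5%.

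The members were next compared among the 8 lines. The rule used the lowest or highest of the 8 line means, so these tests are not independent of the choice of members. Of higher members 985 (65.6%) and of lower members 962 (56.2%) differed among the lines by limma's F test with Benjamini-Hochberg adjustment over all genes, against 67.5% of all genes. Between the 2 hairpins of a kinase, 571 higher and 547 lower members differed for ATM (43.6% of all genes did), 567 and 568 for ATR (41.0%), 479 and 404 for CHK1 (32.4%), and 650 and 595 for CHK2 (45.4%). As shares these were 38.0% and 32.0%, 37.8% and 33.2%, 31.9% and 23.6%, and 43.3% and 34.8%. The share called was thus lower in members than in all genes in each of these comparisons. The rule itself favours genes that vary little within a side. At least 98 lower members were below background on all 24 arrays, where differences among the lines could hardly be seen. With only genes above background on all 36 arrays, 1436 members differed among the lines, out of 1012 higher and 1102 lower ones. Nothing is read from the lower shares in members. By direction, 341 higher members were higher and 230 lower in shATM-3 than in shATM-1, and 392 and 155 lower members (24.4% and 19.2% of all genes). For shATR-4 against shATR-3 these counts were 364 and 203, and 436 and 132 (24.1% and 16.8% of all genes). For shCHK1-4 against shCHK1-3 they were 362 and 117, and 283 and 121 (20.3% and 12.1%). For shCHK2-2 against shCHK2-1 they were 208 and 442, and 207 and 388 (19.2% and 26.2%). In each pair the larger count lay on the same side in both member sets as over all genes, so nothing particular to members is read from it.

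The members that differed most between hairpins recurred across kinases. MMP10, the matrix protease stromelysin-2, was 29.2-fold higher in shATM-3 than in shATM-1 (4.87 ± 0.19, log2 and SE, limma adjusted p 2.99e-18) and 33.9-fold higher in shATR-4 than in shATR-3 (adjusted p 2.48e-19). It was 10.0-fold higher in shCHK1-4 than in shCHK1-3 (adjusted p 4.61e-14) and 18.9-fold lower in shCHK2-2, where 1 of 3 arrays was above background, than in shCHK2-1 (adjusted p 4.25e-17). MMP10 met the rule narrowly, with a gap of 0.18. Its group means were 10.81, 11.04, 9.95 and 9.74 in shATM-3, shATR-4, shCHK1-4 and shCHK2-1, and 5.50 to 6.63 in the other 4 of the 8 lines.

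KRT15 had the same order on the lower side. It was 18.5-fold higher in shATM-3 than in shATM-1 (4.21 ± 0.10, limma adjusted p 3.5e-23) and 11.1-fold lower in shCHK2-2 than in shCHK2-1 (adjusted p 8.88e-21). Its line means ran from 7.79 to 12.47, and the lowest other group stood at 13.76. AKR1C2 was 14.5-fold higher in shATM-3 than in shATM-1 and 9.04-fold higher in shCHK1-4 than in shCHK1-3 (limma adjusted p 4.61e-20 and 1.09e-17). KLK5 was 27.0-fold higher in shATR-4 than in shATR-3, where 2 of 3 arrays were above background, and NCCRP1 at least 18.1-fold, being below background in shATR-3 (limma adjusted p 1.51e-21 and 1.55e-21). In shATM-3 and shATR-4 the lower members KRT15 and KLK5 thus stood nearer to the other 4 groups.

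Differences of the opposite sign were smaller in these leading genes. AKAP12, a scaffold of protein kinase A, was 3.15-fold lower in shATM-3 than in shATM-1 and 3.59-fold lower in shATR-4 than in shATR-3 (limma adjusted p 1.66e-09 and 1.49e-10). The arginine transporter gene SLC7A2 was 2.81-fold lower in shATM-3 than in shATM-1 and 2.89-fold lower in shCHK1-4 than in shCHK1-3 (adjusted p 1.23e-09 and 1.4e-09). SGPP2, a phosphatase of sphingosine phosphate, was 4.50-fold higher in shCHK2-2 than in shCHK2-1 (adjusted p 6.3e-17). Of members above background on all 24 arrays, S100P and KRT15 had the widest line means (4.93 and 4.68) and POMP, MICU2, NOP53 and WWP1 the narrowest (0.08 to 0.11).

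The lines did not stand equally far from the other groups. For lower members the line nearest to the other side was shATM-3 in 411 genes (24%) and shATR-4 in 311 (18.2%), but shATR-3 in 104 (6.07%) and shCHK1-3 in 107. For higher members it was shCHK2-2 in 267 (17.8%) and shATM-3 in 249 (16.6%), but shCHK1-4 in 115 (7.66%). On the other side, shControl was nearest in 498 higher (33.2%) and 475 lower members (27.7%). These counts describe which group set the gap, and no group set it in more than 33.2% of the members of a direction.

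Members were then compared among the other 4 groups. By the F test 824 higher (54.9%) and 1143 lower members (66.8%) differed there, against 70% of all genes. The 2 hairpins against 53BP1 differed in 122 and 129 members (8.13% and 7.54%, all genes 7.40%). shControl differed from wild type in 378 and 543 members (25.2% and 31.7%, all genes 30.5%), and the mean of the sh53BP1 lines from shControl in 708 and 989 (47.2% and 57.8%, all genes 62.3%). These last 2 comparisons share the shControl arrays. In sh53BP1 against shControl, 309 higher members were higher and 399 lower, and 407 lower members were higher and 582 lower (30.5% and 31.8% of all genes). For sh53BP1-2 against sh53BP1-1 the counts were 102 and 20, and 80 and 49 (5.03% and 2.36%), and for shControl against wild type 220 and 158, and 254 and 289 (14.5% and 16%).

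Some members moved far within the 4 groups, although by the rule no group mean of a member could reach the 8 lines. IL1A had means of 8.22 in wild type, 11.01 in shControl, 5.78 in sh53BP1-1 and 6.09 in sh53BP1-2, under the 12.27 of the lowest line. It was 33.7-fold lower in sh53BP1 than in shControl (-5.07 ± 0.12, limma adjusted p 3.16e-25), and IL1B, below background in both sh53BP1 lines, stood 17.2-fold or more under shControl (adjusted p 5.24e-25). TFPI2, a serine protease inhibitor, was 8.31-fold higher in shControl than in wild type, where 2 of 3 arrays were above background (adjusted p 6.74e-17). The shControl level of these higher members thus lay between wild type and the 8 lines.

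Lower members showed several orders. KLK7 was 23.9-fold lower in shControl than in wild type and 27.6-fold higher in sh53BP1 than in shControl (limma adjusted p 3.37e-19 and 7.24e-22). Its mean was 6.51 in shControl and 5.69 in the highest line, an order that the rule requires. ALDH3A1, an aldehyde dehydrogenase, moved the other way, 17.3-fold higher in shControl than in wild type and 27.5-fold lower in sh53BP1 than in shControl (adjusted p 1.16e-20 and 2.13e-24). IGFBP3 was 23.5-fold lower in sh53BP1 than in shControl (adjusted p 8.47e-23). PADI4 and PLAC8, below background in the 8 lines, were 6.89-fold and 6.37-fold lower in shControl than in wild type (limma adjusted p 1.27e-15 and 1.52e-16). FST was 3.75-fold higher in sh53BP1-2 than in sh53BP1-1 (adjusted p 5.75e-16), and SRPX, a secreted sushi-repeat protein, 3.91-fold (adjusted p 4.78e-15).

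Other measures of the same split were read without tests. Of 575 further probes for higher members, 354 met the rule in the same direction (61.6%), 2 in the opposite one and 219 in neither. Of 531 for lower members, 295 were the same (55.6%) and 8 opposite. When members were chosen on 1 replicate number alone, between 78.7% and 86.4% of them met the rule in the means of the other 2 replicates, and 0 met it in the opposite direction. All replicate numbers come from the same groups, so these shares describe how alike the replicates were and nothing more about the split. With the deposited log2 values, which keep the background, 1497 of the 1501 higher and 1704 of the 1712 lower members still met the rule. On that scale the differences of named members shrank to a median ratio of 0.674, and in 99 of 205 the difference fell short by a factor above 1.5.

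The profiles most like each marker over the 12 group means, by Pearson's r, were as follows. For CCND2 they were DPYSL3, ARHGEF35 and DKK3 (0.9994, 0.9987 and 0.9986), and for CDKN2A ARHGEF35, RTTN and CCND2 (0.9987, 0.9982 and 0.9981). For MTAP they were LDAH, BCAT1 and LINC02910 (0.9967, 0.9936 and 0.9934). For MSLN they were COBL, EPDR1 and KRTCAP3 (0.9990, 0.9988 and 0.9986), and for RARRES1 CFD, PPP1R9A and GABRE (0.9966, 0.9953 and 0.9936). With 8 groups on one level and 4 on another, any gene that follows the split gives a value near 1, and the values rank likeness only.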

How the data were processed

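Total RNA was amplified to biotinylated cRNA, per the labels' protocols, and hybridised to 36 Illumina BeadChip expression arrays, 3 per group. The deposited signal file holds intensity values for each probe. Its lowest values and unequal columns show that the authors applied neither normalization nor background subtraction. Each intensity column is followed by a detection p-value column, per the file headers, which ranks the signal among negative control beads. The series table that the authors deposited holds log2 values, which equal quantile normalized log2 signals to within 0.0013, although no source used here states the authors' method. All titles name the same array set, so no batch could be read from the labels.

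Signals were processed with neqc of limma 3.58.1 (R 4.3.3, data.table release 1.17.8; offset 16), the negative controls being estimated through the detection calls. Of 47231 probes 30113 had 1 gene, 8 several and 17110 none. A probe was kept when p was under 0.01 on each of the 3 arrays of some group. This left 18905 probes, 4033 of them without a single gene name and not used. Each gene was represented by its brightest probe, for 11048 genes. Between 33.5% and 38.3% of probes were above background per array, mean signals lay between 460 and 677, and 3 arrays per group limit the precision. All 72 columns used had a sample, and the highest correlation between arrays was 0.996.

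Group means were estimated for the 12 groups in 1 limma model of the 36 arrays. Moderated t and F tests within each side were adjusted by the Benjamini-Hochberg method over all genes, with a threshold of 0.05; they measure the spread between labelled replicates, which may be partly technical. The code was tested on simulated data. Replicate numbers did not pair the arrays: residuals with the same number had a mean correlation of -0.000629, others 0.000385. Alternatives were the deposited values, no background correction, other detection filters, the dimmest probe per gene, group medians, single replicates, every array separate, a minimum gap, fits on fewer groups, a replicate block and leaving out each array.

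The members and the gene lists were chosen with earlier results of these data known. Named genes were the 5 markers and the hairpin targets, the 12 widest gaps per direction and detection class, and up to 4 list members per direction with 2 non-members. Added were the leading members of each within-side comparison, those nearest the limit of the rule, the longest runs and the most similar profiles. Genes whose presence differs between people, such as HLA genes, were left out of naming. Gene order and promoters are from RefSeq (GRCh38.p14), whose build need not be that of the array annotation. Figures used Python 3.11.15 with matplotlib 3.10.9.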

Additional observations from a re-analysis of the deposited data

Results flagged for a closer look

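Probes without a single gene name entered no comparison above. Among 4033 such probes that passed the detection filter, 13 were detected in each of the 24 arrays and in 0 of the 12. The reverse was seen for 23. These signals are given as counts because the probes carry no gene name here.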

How the results depend on the processing

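With the deposited log2 values, and when each array was left out in turn, no count of members or of members called moved by over 1.5 times. The setting with no background correction used nearly the same values as the deposited ones and gave the same counts, so it is not a second check. For 184 of 265 named genes the difference between the sides moved by more than the SD within groups with the deposited values. The difference turned sign in 0 of the 205 named members, and non-members were not checked for this. Leaving out 1 array gave 1465 to 1522 higher and 1682 to 1721 lower members, 143 to 147 higher on chromosome 20 and 219 to 232 lower on chromosome 16. Members called ranged from 965 to 1196 (ATM pair), 944 to 1202 (ATR pair), 715 to 893 (CHK1 pair), 1076 to 1312 (CHK2 pair), 192 to 288 (53BP1 pair), 785 to 984 (shControl against wild type), 1518 to 1757 (sh53BP1 against shControl), 1863 to 2030 (among the 8 lines) and 1863 to 2054 (among the 4 groups). With only probes above background on all 36 arrays, a smaller set, 1102 lower members remained, and 137 members were called for the 53BP1 pair and 582 for shControl against wild type. With every array separate there were 652 higher and 845 lower members, 85 on chromosome 20 and 124 on chromosome 16. With a gap of at least 1 there were 211 and 264, and without the sh53BP1 lines 2625 and 2682. Fits on only the groups compared, with fewer residual arrays, called 471 members for the CHK1 pair and 164 for the 53BP1 pair. The replicate block changed no count by over 1.5 times (ATM pair 1117, ATR 1121, CHK1 871, CHK2 1238, 53BP1 248 members), and the numbers do not pair the arrays. Genes below background on one side have only a bound, and low genes are limited by signal over background.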
